A study of Arabidopsis thaliana with 6 samples.

Results

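SBP-box SPL genes encode plant transcription factors that share a zinc-binding DNA-binding domain, and 10 of them were examined in young Arabidopsis flower buds after activation of the floral zinc-finger protein SUPERMAN. They were SPL2 (AT5G43270), SPL3 (AT2G33810), SPL4 (AT1G53160), SPL5 (AT3G15270), SPL6 (AT1G69170), SPL8 (AT1G02065), SPL9 (AT2G42200), SPL10 (AT1G27370), SPL11 (AT1G27360) and SPL15 (AT3G57920). They were taken by locus from the deposited intensity table, where the 10 loci hold 18 features with values, of 37118 features and 32627 genes in all. A further 2 rows, 1 each for SPL2 and SPL10, hold no value on any array. The RefSeq gene table describes all 10 as squamosa promoter binding genes. SPOROCYTELESS/NOZZLE, which shares the abbreviation SPL, belongs to another family. The genes were chosen by family, with the log2 intensities of these same arrays under both treatments already in view, so their differences are given as a description, with no p for any of them.

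The DEX group comprised 3 arrays of inflorescences carrying 35S::SUP-GR in the Ler wild-type background, given 10 µM dexamethasone (DEX) by submerging for 1 min with 0.015% Silwet L-77. The Mock group comprised 3 arrays of the same genotype given ethanol in the same way. In both groups buds earlier than flower stage 10 were collected 4 hours after treatment from plants kept at 22 °C in continuous light. The cauliflower mosaic virus 35S promoter is active in most plant tissues, so the fusion of SUPERMAN with the glucocorticoid receptor is not limited to the whorls where SUPERMAN normally acts. Both groups carry the transgene, and no plants without it were analysed here, so an effect of DEX itself cannot be told apart from one of the fusion. The number of transgenic lines, the age of the plants and any pooling are not stated in the labels.

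As background, most SBP-box factors are restrained in young plants by the microRNA miR156, and they accumulate as it declines with age. SPL3, SPL4 and SPL5 are small proteins that promote floral meristem identity genes such as LFY, FUL and AP1. SPL9 and SPL15 act in the shoot apex on flowering and on the pace of leaf initiation, in part by raising miR172, which represses AP2-like genes. SPL2, SPL10 and SPL11 shape leaves and the reproductive shoot. SPL8 lacks a miR156 site and acts in the anther, where it is needed for normal sporogenous tissue, so not every gene examined is foremost a floral transition gene. SPL6 is known mainly from plant immunity.

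All 10 genes gave a strong signal. Each was brighter than between 67.6% and 91.5% of genes over the 6 arrays, where the median gene had an intensity of 72.9. Intensities are the authors' normalized values on a linear scale, and levels of different genes are not compared, since each probe set has its own response. In DEX, 7 of the 10 genes had a lower mean log2 intensity and 3 a higher one. Among all genes 49.1% were lower, and among genes brighter than the median 47.4% were. The median difference, DEX minus Mock, was -0.35 on the log2 scale for the 10 genes, against 0.01 for all genes. Every DEX array was lower than every Mock array for 5 genes (SPL3, SPL4, SPL5, SPL9 and SPL11), a pattern found for 9.2% of all genes. Every DEX array was higher than every Mock array for SPL8 alone among the 10, a pattern found for 8.74% of all genes. The groups overlapped for SPL2, SPL6, SPL10 and SPL15. Counted over all 18 features, DEX lay wholly below Mock for 7, against 8.94% of all features, and wholly above for 1, against 8.97%. Differences below -0.5 were found for 4 of the 10 genes, against 10.8% of all genes and 2.81% of genes brighter than the median. The RNA came from inflorescence tissue with many cell types, so fewer cells of a type and less RNA per cell cannot be told apart.

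**Figure D1:**
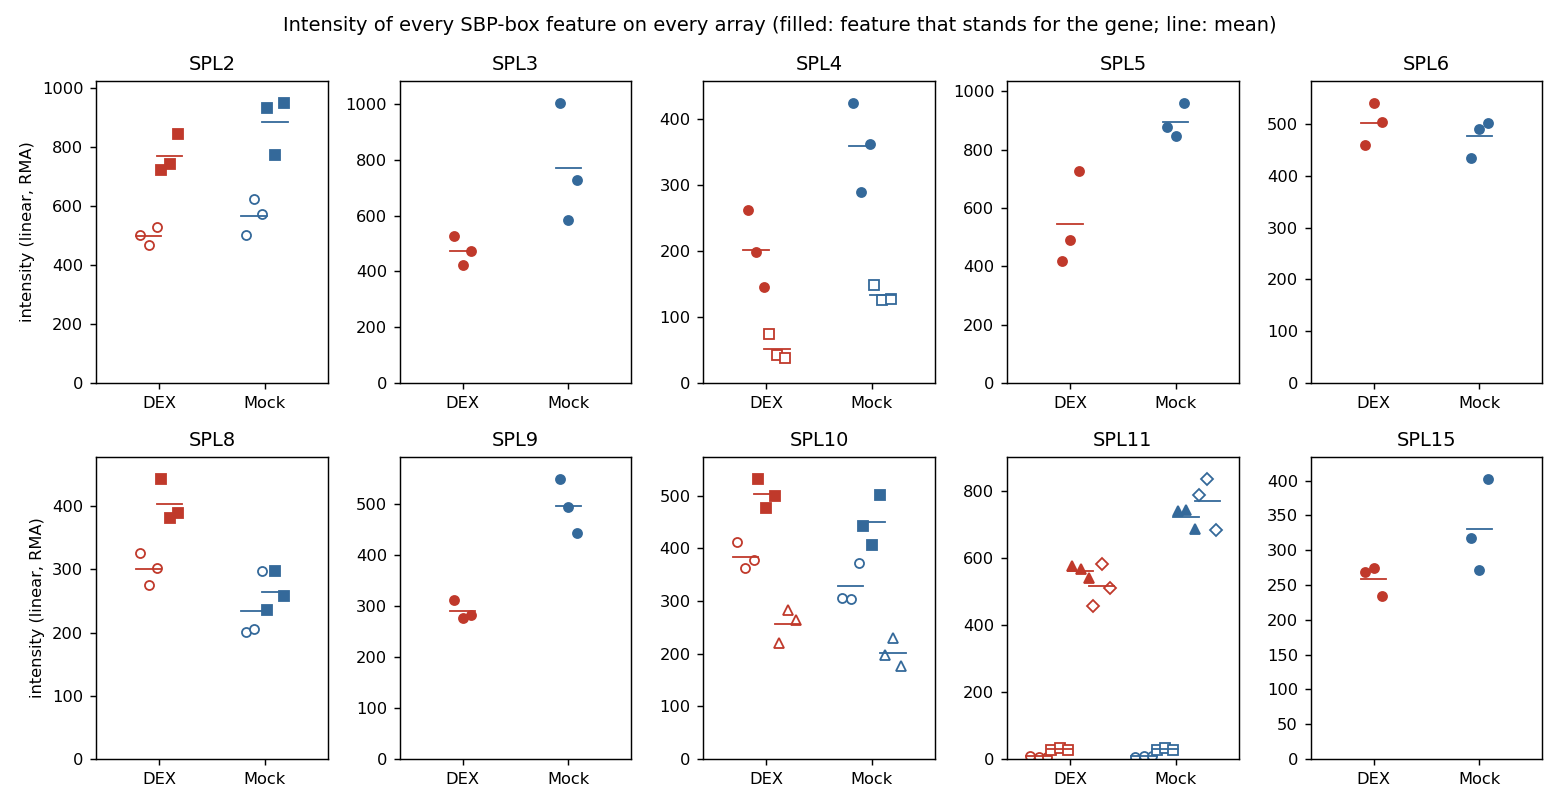
Linear intensity (vertical axis, from 0) of each feature of the 10 SBP-box genes on each of the 3 DEX arrays (red) and 3 Mock arrays (blue). Filled symbols are the feature that stands for the gene, open symbols its other features, and lines are means; the DEX points of SPL3, SPL4, SPL5 and SPL9 lie below the Mock points, and those of the filled SPL8 feature above.

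The small genes SPL3, SPL4 and SPL5 were each lower in DEX. SPL3 read 528, 423 and 472 on the DEX arrays, against 1002, 583 and 728 on the Mock arrays. The groups did not overlap, and Mock replicate 1 was far above the other Mock arrays. The difference was -0.67 on the log2 scale (standard error of the fit, SE, 0.23), a 1.59-fold lower level, and without Mock replicate 1 it was -0.46. That array also had low organelle-encoded transcripts, with a median deviation of -0.52 for chloroplast genes, where the other 5 arrays lay between 0.03 and 0.21.

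SPL4 is represented by a pair of features, and both were lower in DEX. Feature 1, the brighter, read 263, 199 and 146 on the DEX arrays, against 424, 290 and 363 on the Mock arrays. Its groups came close, since DEX replicate 1 lay only 26.9 intensity units below Mock replicate 2. The difference was -0.85 (SE 0.26) and lay between -1.06 and -0.63 when any 1 array was left out. Feature 2 read 74.2, 42.6 and 38.8 on the DEX arrays, against 149, 126 and 128 on the Mock arrays. Its difference was the largest of the 18 features, at -1.43 (SE 0.27), a 2.69-fold lower level, and DEX replicate 1 was the highest DEX array on both features. Which transcript forms each feature detects is not stated.

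SPL5 read 417, 491 and 728 on the DEX arrays, against 876, 847 and 958 on the Mock arrays. DEX replicate 3 lay well above the other DEX arrays and 119 units below the lowest Mock array. The difference was -0.75 (SE 0.23), and without DEX replicate 3 it was -0.98. The DEX array that was lowest thus differed among these genes, being replicate 2 for SPL3, replicate 3 for SPL4 and replicate 1 for SPL5.

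SPL9 had the largest difference of the 10 genes relative to its SE. It read 311, 276 and 282 on the DEX arrays, against 549, 495 and 444 on the Mock arrays. The lowest Mock array stood 133 units above the highest DEX array. Mean log2 intensity was 8.18 ± 0.09 in DEX and 8.95 ± 0.15 in Mock (SD, n = 3 each). The difference of -0.77 (SE 0.13) is a 1.71-fold lower level, and it lay between -0.85 and -0.70 with any 1 array left out. Its close relative SPL15 read 269, 275 and 234 on the DEX arrays, against 318, 272 and 402 on the Mock arrays. Here DEX replicate 2 exceeded Mock replicate 2, so the groups overlapped. The difference was -0.34 (SE 0.18), but it was -0.19 without Mock replicate 3, the brightest array, and -0.47 without Mock replicate 2.

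SPL10 and SPL11 are direct neighbours on chromosome 1, with no protein-coding gene between them in the RefSeq table, and their differences had opposite signs. SPL11 read 574, 567 and 541 on the DEX arrays, against 740, 743 and 685 on the Mock arrays. All DEX arrays were lower, and scatter within groups was small, with SDs of 0.05 in DEX and 0.07 in Mock on the log2 scale. The difference was -0.37 (SE 0.10). A second bright feature of SPL11, feature 4, read 457, 582 and 510 on the DEX arrays, against 787, 834 and 682 on the Mock arrays. It differed by -0.57 (SE 0.14), and its profile over the 6 arrays resembled that of feature 3 (r = 0.93).

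The other SPL11 features were dim, with mean intensities of 7.36 in DEX and 8.66 in Mock for feature 1, and 29.1 in DEX and 28.1 in Mock for feature 2. Their differences, -0.27 (SE 0.29) and 0.05 (SE 0.15), were no larger than the SE.

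SPL10 showed differences above 0 on each of its 3 features with values. Its brightest feature read 532, 477 and 500.2 on the DEX arrays, against 442, 406 and 500.7 on the Mock arrays. Mock replicate 3 matched the DEX arrays, and the difference was 0.17 (SE 0.12). Without Mock replicate 2 it was 0.10, and without Mock replicate 3 it was 0.25. Features 1 and 3 differed by 0.24 (SE 0.13) and 0.35 (SE 0.16), and the groups overlapped on all 3 features.

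SPL2, the relative of SPL10 and SPL11, read 720, 740.4 and 845 on the DEX arrays, against 931, 774 and 947 on the Mock arrays. DEX replicate 3 exceeded Mock replicate 2, and the difference was -0.20 (SE 0.14). Its other feature differed by -0.18 (SE 0.13). The groups overlapped on both SPL2 features.

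SPL8, the anther gene outside miR156 control, had the largest difference above 0. Its brighter feature read 443, 381 and 389 on the DEX arrays, against 235, 297 and 259 on the Mock arrays. The lowest DEX array stood 83.3 units above the highest Mock array. The difference was 0.62 (SE 0.14), a 1.54-fold higher level, and it lay between 0.54 and 0.71 with any 1 array left out. Its other feature read 326, 276 and 303 on the DEX arrays, against 201, 206 and 297 on the Mock arrays. On that feature Mock replicate 3 reached the DEX range, and the difference was 0.38 (SE 0.19).

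SPL6 did not separate the groups. It read 459, 539 and 504 on the DEX arrays, against 435, 491 and 502 on the Mock arrays. The difference was 0.07 (SE 0.12), and it lay between 0.01 and 0.13 with any 1 array left out.

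**Figure D2:**
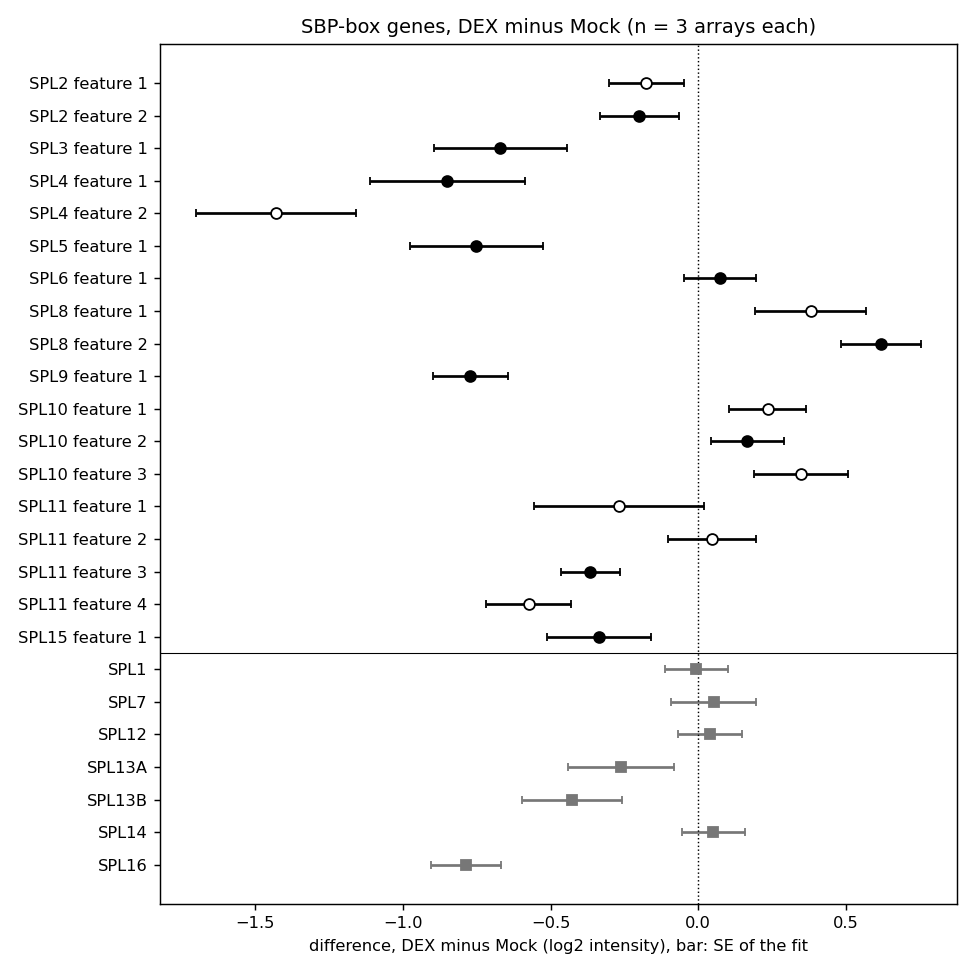
Difference in log2 intensity, DEX minus Mock (horizontal axis), with the SE of the fit as bars, for the 18 features of the 10 SBP-box genes (circles, filled where the feature stands for the gene) and for 7 other SBP-box genes (grey squares). SPL4 feature 2 lies furthest below 0 at -1.43 and SPL8 feature 2 furthest above at 0.62, and the 3 SPL10 features lie on the other side of 0 from the bright SPL11 features 3 and 4.

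None of the 10 genes passed an adjusted p of 0.05 in the fit over all genes (limma, default prior, 0 of 10), where 0.0521% of genes were called. At an unadjusted p under 0.05 there were 6, where 10.4% of all genes were. Of the 18 features, 0 passed in the fit over all features, where 0.0593% were called. With limma's trended and robust prior, which lets the expected scatter follow intensity, the count was 2 of 10, where 1.32% of genes were called. In the same fit over all features it was 4 of 18, where 1.26% of features were called. Since the 10 genes were chosen with this contrast known, nothing is read from these counts.

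The genes did not all vary together over the 6 arrays. The profiles of SPL9 and SPL11 were the most alike among the 45 pairs of genes (r = 0.98 over 6 arrays, and 0.76 for deviations from the group means). SPL8 ran opposite to SPL9 (r = -0.90), but r was 0.03 for their deviations from the group means. SPL3 and SPL4 had r = 0.88 over all arrays and 0.65 within groups, while SPL4 and SPL5 had r = 0.46 over all arrays and -0.76 within groups. These values describe 6 arrays that share 1 treatment contrast and carry no p.

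**Figure D3:**
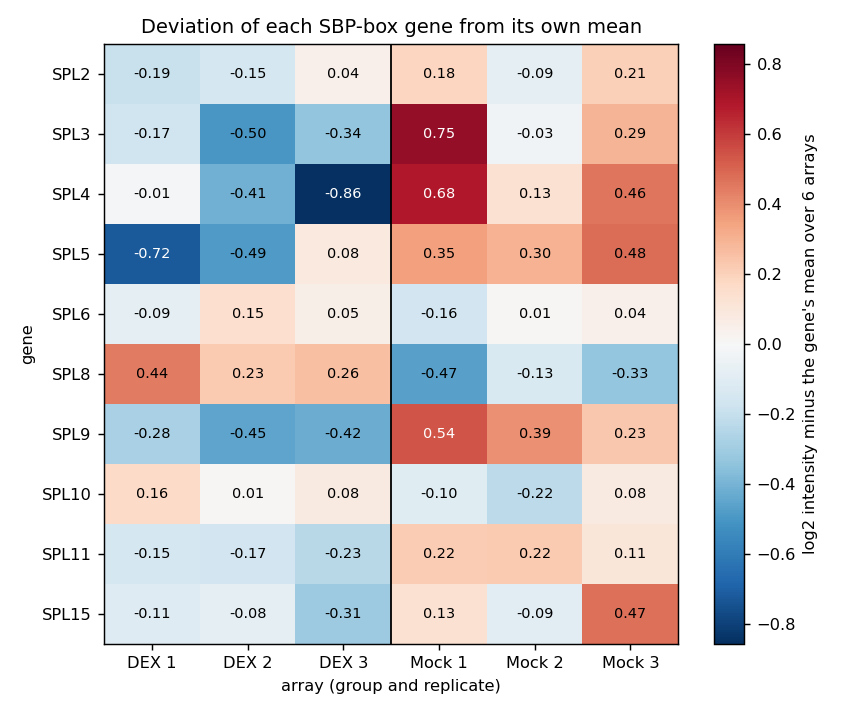
Log2 intensity of each SBP-box gene on each array minus the gene's own mean over the 6 arrays (colour scale and printed values), with the 3 DEX arrays left of the line and the 3 Mock arrays right of it. SPL3, SPL4, SPL9, SPL11 and SPL15 are below their mean on every DEX array, and SPL5 is slightly above its mean on DEX replicate 3 (0.08). SPL8 and SPL10 are above their mean on every DEX array, and of these only SPL8 is below it on every Mock array.

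For SPL4, SPL5 and SPL9, which had the largest differences, genes with the most similar profile were sought among 16312 other genes brighter than the median. For SPL9 the closest were BETA-OHASE 1, a carotenoid hydroxylase, AT4G14420 and AT4G01580 (r = 0.996, 0.995 and 0.995 over 6 arrays). Of these, AT4G01580 had the largest difference, at -1.02 (SE 0.17). For SPL5 they were BHLH32, a helix-loop-helix factor, WES1, which conjugates auxin to amino acids, and AT1G61030 (r = 0.996, 0.994 and 0.990). WES1 differed by -1.01 (SE 0.23). For SPL4 they were AT3G57780, AT2G22900 and PUB26, a U-box ubiquitin ligase (r = 0.996, 0.991 and 0.989). These coefficients describe 6 arrays that share 1 treatment contrast and carry no p. They are the highest of 16312 values each, and so wide a search over so few arrays can give high values for unrelated genes.

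The 7 SBP-box genes outside this set were measured in the same fit, and 0 passed (limma, adjusted p), where 0.0521% of all genes were called. At an unadjusted p under 0.05, 2 were lower and 0 higher, against 10.4% of all genes in either direction. With the trended and robust prior 1 passed, against 1.32% of all genes. SPL16, a large SBP-box protein with ankyrin repeats, read 220.5, 256 and 244 on the DEX arrays, against 380.1, 425 and 437 on the Mock arrays. The groups were well apart, with a difference of -0.79 (SE 0.12, limma adjusted p = 0.128, and 0.00301 with the trended and robust prior). SPL13B, a miR156 target, differed by -0.43 (SE 0.17, limma adjusted p = 0.475). Its near-identical copy SPL13A differed by -0.26 (SE 0.18), and the signals of such copies may not be separable on an array. Unlike SPL16, the other large genes, SPL1, SPL7, SPL12 and SPL14, lay between -0.01 and 0.05. The median of the 7 was -0.01, against 0.01 for all genes.

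Upstream, the loci that encode miR156 and the related miR157 were near the floor of the arrays. Of 12 loci 11 had values, and their mean intensities lay between 0.872 and 14.1, all dimmer than the median gene. None passed (limma, 0 of 11), where 0.0521% of all genes were called. At an unadjusted p under 0.05, 1 was higher and 1 lower, against 10.4% of all genes in either direction. With the trended and robust prior 0 passed, against 1.32% of all genes. MIR157C read 1.45, 1.17 and 2.47 on the DEX arrays, against 4.36, 3.72 and 2.55 on the Mock arrays, a difference of -1.10 (SE 0.35, limma adjusted p = 0.373; -0.14 with 16 added to each intensity). MIR156E differed by 1.20 (SE 0.47, limma adjusted p = 0.470; 0.10 with 16 added) at mean intensities of 2.12 in DEX and 0.889 in Mock. At such intensities a log2 difference rests on a few units of signal, and the mature microRNA was not measured here.

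The 5 MIR172 loci, of which MIR172B is a target of SPL9, were as dim, with mean intensities between 1.16 and 3.75. All 5 differences lay above 0, with a median of 0.50, while 49.1% of all genes lay below 0. At such low intensities nothing is read from the shared sign. None passed (limma, 0 of 5), where 0.0521% of all genes were called. At an unadjusted p under 0.05, 1 was higher, against 10.4% of all genes in either direction. With the trended and robust prior 0 passed, against 1.32% of all genes. MIR172B read 4.89, 3.96 and 4.19 on the DEX arrays, against 3.76, 3.07 and 2.98 on the Mock arrays (difference 0.41, SE 0.15, limma adjusted p = 0.432; 0.08 with 16 added). MIR172A differed by 0.50 (SE 0.23, limma adjusted p = 0.543). Its difference was 0.30 without Mock replicate 1, and 0.03 with 16 added.

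The 6 AP2-like genes that miR172 represses had a median difference of 0.06, and 0 passed (limma), where 0.0521% of all genes were called. At an unadjusted p under 0.05, 2 were higher and 1 lower, against 10.4% of all genes in either direction. With the trended and robust prior 1 was higher, against 1.32% of all genes. AP2, which specifies sepals and petals, read 1260, 1180 and 1177 on the DEX arrays, against 863, 923 and 811 on the Mock arrays. Its groups did not overlap, with a difference of 0.48 (SE 0.11, limma adjusted p = 0.248, and 0.00995 with the trended and robust prior). TOE2, a flowering repressor, differed by 0.38 (SE 0.10, limma adjusted p = 0.319). TOE3 went the other way, by -0.70 (SE 0.21, limma adjusted p = 0.364), with every DEX array below every Mock array.

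Among 13 floral transition and meristem identity genes, 0 passed (limma), where 0.0521% of all genes were called. At an unadjusted p under 0.05, 1 was higher and 4 lower, against 10.4% of all genes in either direction. With the trended and robust prior 1 was lower, against 1.32% of all genes. The median difference was -0.08. LFY, which confers floral meristem identity and is promoted by SPL3, read 224.5, 148 and 184 on the DEX arrays, against 291, 339 and 340.4 on the Mock arrays. Every DEX array was lower, with a difference of -0.82 (SE 0.18, limma adjusted p = 0.251, and 0.0155 with the trended and robust prior). The 2 other genes named above as promoted by the small SPL proteins did not pass either, and they did not share 1 sign. FUL differed by 0.06 (SE 0.12, limma adjusted p = 0.908) and AP1 by -0.28 (SE 0.11, limma adjusted p = 0.477). FT, the leaf-derived flowering signal, differed by -1.55 (SE 0.38, limma adjusted p = 0.278) at mean intensities of 4.15 in DEX and 12.2 in Mock. With 16 added to each intensity its difference was -0.47. TSF, as dim and in the same list, went the other way, by 0.94 (SE 0.27, limma adjusted p = 0.341). Its mean intensities were 5.69 in DEX and 3.01 in Mock, with every DEX array above every Mock array.

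Of 7 trichome and anthocyanin genes linked to SPL9, TRY fell and the rest did not pass (limma, 1 of 7). Among all genes 0.0521% were called. At an unadjusted p under 0.05, 2 were lower and 0 higher, against 10.4% of all genes in either direction. With the trended and robust prior 2 were lower, against 1.32% of all genes. The median difference of the 7 was 0.02. The list was chosen with earlier results of these data known, so nothing is read from its counts and its p-values are descriptive. TRY, a small MYB protein that suppresses trichomes and is activated by SPL9 on the flowering stem, read 57.1, 52.6 and 64.1 on the DEX arrays, against 304, 250.2 and 245 on the Mock arrays. It fell by 2.20 on the log2 scale (SE 0.14, limma adjusted p = 0.0252), but adjusted p was between 0.123 and 0.176 with any 1 array left out, and 0.299 with a replicate block. TCL1, the other such SPL9 target, differed by 0.02 (SE 0.14). TT7, a flavonoid hydroxylase of anthocyanin synthesis, differed by -1.07 (SE 0.18, limma adjusted p = 0.153, and 0.00114 with the trended and robust prior).

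Of 7 early anther genes, set beside SPL8 for its role in that organ, NZZ (SPOROCYTELESS) fell and the others did not pass (limma, 1 of 7). Among all genes 0.0521% were called. At an unadjusted p under 0.05, 1 was lower and 0 higher, against 10.4% of all genes in either direction. With the trended and robust prior 1 was lower, against 1.32% of all genes. The median difference of the 7 was -0.03. This list too was chosen with earlier results of these data known, so its counts and p-values are descriptive. NZZ, which initiates sporogenous cells, read 130.1, 140.0 and 133 on the DEX arrays, against 318, 342 and 321 on the Mock arrays. It fell by 1.28 (SE 0.10, limma adjusted p = 0.0470), but adjusted p was between 0.178 and 0.194 with any 1 array left out. It was 0.299 with a replicate block and 0.0508 with median centring of the arrays. SPL8 and NZZ thus had differences of opposite sign on the same arrays. AMS, a tapetum regulator, differed by 0.29 (SE 0.12, limma adjusted p = 0.487).

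**Figure D4:**
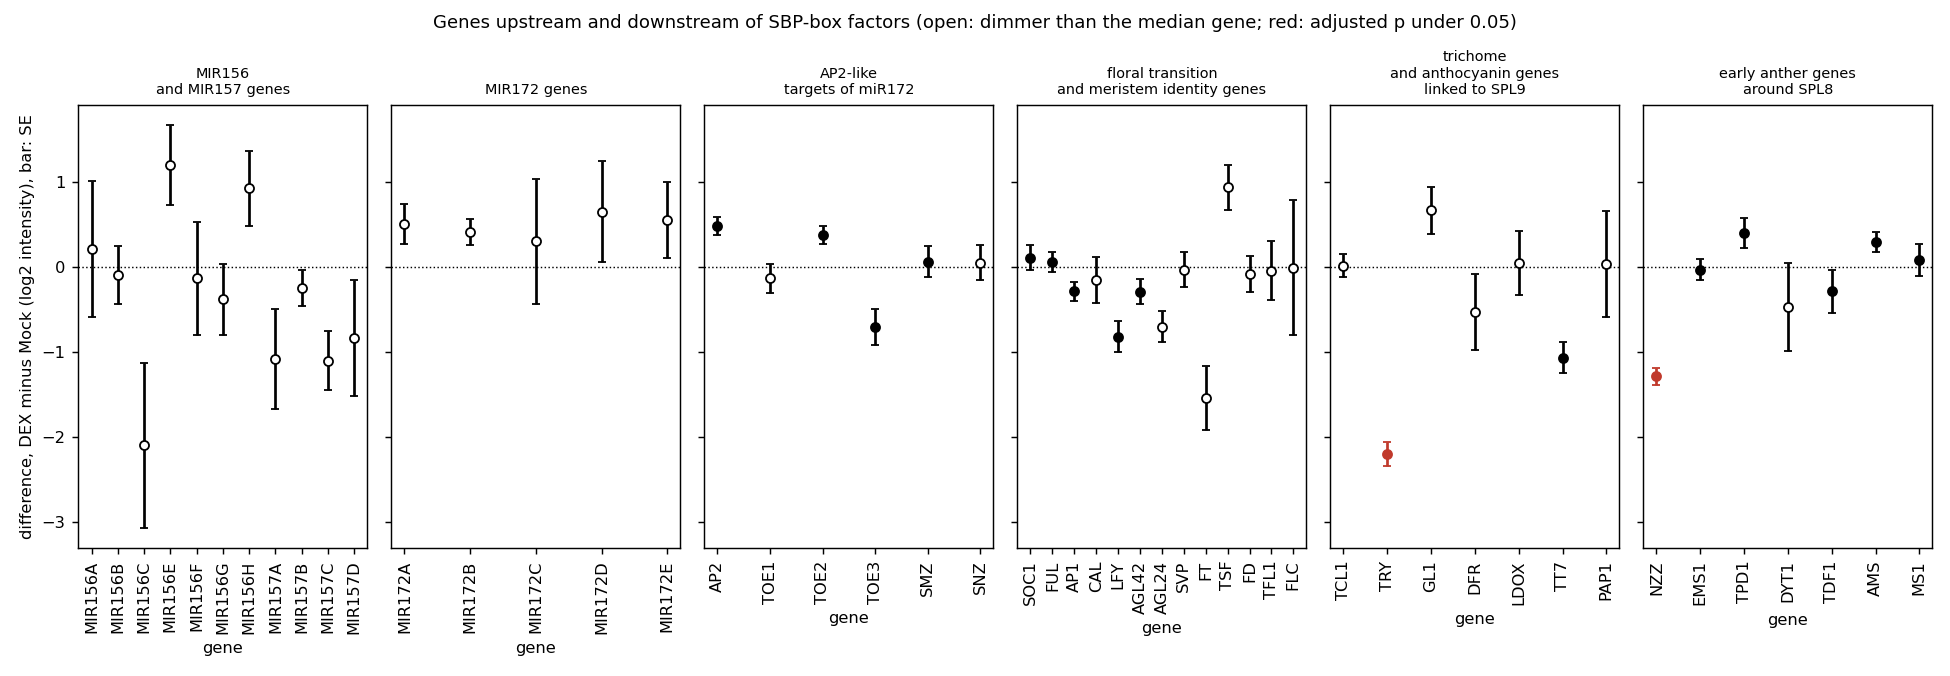
Difference in log2 intensity, DEX minus Mock (vertical axis), with SE bars, for genes of 6 lists upstream and downstream of SBP-box factors; open symbols are genes dimmer than the median gene and red marks an adjusted p under 0.05. TRY at -2.20 and NZZ at -1.28 are the only red points, and all MIR156, MIR157 and MIR172 loci are open.

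The tissue carried its defining markers. The flower and meristem genes AP3, PI, AG, SEP3 and STM were all brighter than the median gene, and their summed intensity was 2492 to 2737 in DEX, against 3136 to 3249 in Mock. All 5 differences lay below 0, where 49.1% of all genes did, with a median of -0.18. None passed (limma, 0 of 5), where 0.0521% of all genes were called. At an unadjusted p under 0.05, 1 was lower, against 10.4% of all genes in either direction. With the trended and robust prior 0 passed, against 1.32% of all genes. Of these 5, only SEP3 (difference -0.47, SE 0.16) had every DEX array below every Mock array. AP1 and LFY, also planned as flower markers and given above with the floral transition genes, had the same pattern. It was found for 9.2% of all genes. AP1 read 1367, 1460 and 1363 on the DEX arrays, against 1783, 1791 and 1539 on the Mock arrays. The part of these 5 markers in the lower SPL values was not tested. Mature pollen markers summed to 356 to 489.9 in DEX and 454 to 694 in Mock, root markers to 134 to 295 in DEX and 131 to 237 in Mock, and seed storage markers to 43.7 to 60.2 in DEX and 54.7 to 64.7 in Mock. For these 3 lists the groups overlapped. Of the 4 pollen markers, 2 were brighter than the median gene. Of the 4, 3 had differences below 0 and 1 above. VGD1 had mean intensities of 268 in DEX and 390 in Mock. ANX1 went the other way, by 0.60 (SE 0.39), with mean intensities of 64.9 in DEX and 46.0 in Mock. MGH3, a sperm cell histone, was dim, at 4.06 to 5.04 in DEX and 6.69 to 23.4 in Mock. Most of the root sum came from COBL9, with mean intensities of 211 in DEX and 167 in Mock.

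**Figure D5:**
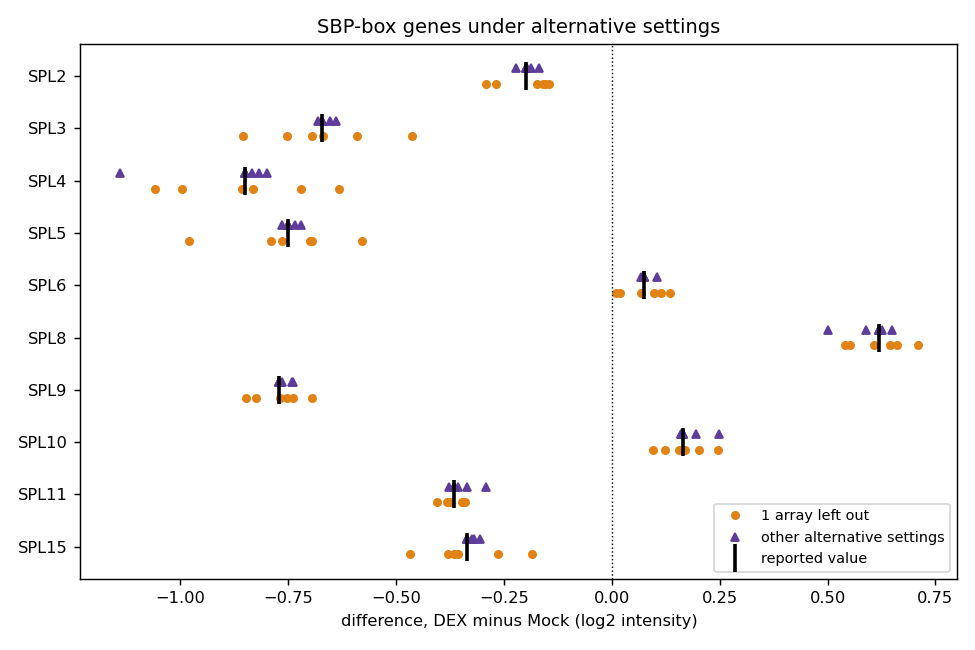
Difference in log2 intensity, DEX minus Mock (horizontal axis), of the 10 SBP-box genes as reported (black bars), with 1 array left out (orange circles) and under 8 other settings (purple triangles). No gene crosses 0, and SPL6 comes closest, at 0.01 without Mock replicate 1.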

How the data were processed

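Inflorescence RNA was labelled with Cy3 and hybridised to NimbleGen arrays, per the labels. The authors deposited an intensity for each feature and array, normalized by RMA per the submitters' processing notes. Values of 0.482 to 3642 show a linear scale. The RMA version, background step, probe design and build are not given here. Of 39640 rows, 2522 hold no value. The log2 was taken with no pseudocount and no filter on dim genes, and the feature with the highest mean log2 value stood for its locus. DEX was compared with Mock by limma 3.58.1 in R 4.3.3 (lmFit, eBayes with the default prior, two-sided). Benjamini-Hochberg adjustment ran over all 32627 genes or, per feature, over all 37118 features, at a threshold of 0.05. The fit was also run on simulated data with independent noise and no shared array effects, which cannot speak for the calls reported here. RefSeq (TAIR10.1) gave names and gene order only.

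The 10 genes, the 11 further lists of 74 loci and the settings were chosen with earlier results of these data known. Counts and p-values of the lists are therefore descriptions. The naming rule took the 10 genes with all features, from each pathway list the genes past the threshold and the 2 with the smallest unadjusted p, and the 3 nearest profiles of the 3 genes with the largest differences. TCL1, FUL, AP1, TSF, TOE3, SPL13A, SPL1, SPL7, SPL12, SPL14, SEP3, VGD1, ANX1, COBL9 and MGH3 lie outside it. They were picked with their values known. Same-numbered DEX and Mock arrays had deviations that correlated at 0.03 to 0.06, and differently numbered ones at -0.06 to 0.004. Every same-numbered value was thus the higher, but all were small. The numbers were not taken to pair samples in the main fit, and the replicate block below allows for pairing. Alternatives were a replicate block, another prior, 2 filters on dim genes, 16 added to each intensity, quantile normalization, median centring, the mean over features, and each array left out. The sources do not say whether replicates were separate plantings, so the p-values reflect only variation between these 6 samples, whose number limits the precision.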

Additional observations from a re-analysis of the deposited data

How the results depend on the processing

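The differences of all 10 SBP-box genes kept their sign under all 14 alternatives. Their median, -0.35, lay between -0.41 and -0.30 with 1 array left out and between -0.35 and -0.31 otherwise. The mean over features moved SPL11 to -0.29, since that mean includes its dim features. The same setting moved SPL4 to -1.14, SPL8 to 0.50 and SPL10 to 0.25. Counts of calls moved most. Against 17 genes and 22 features called, there were 0 and 0 with the replicate block, 105 and 125 without the dimmest 25%, 431 and 468 under the trended and robust prior, 282 and 305 without those below the median, and 204 and 218 with 16 added; median centring left 14 features. Leaving out any 1 array left 0 genes and 0 features (2806 to 3372 genes at an unadjusted p under 0.05). TRY and NZZ were each the only gene called in their list. With the replicate block (adjusted p = 0.299 for both) and with any 1 array left out, those 2 lists had 0 called, and with median centring the anther list had 0 (NZZ adjusted p = 0.0508). The trichome and anthocyanin list had 2 called with 16 added, with the trended and robust prior, and in the test without genes below the median, in each case TRY and TT7. Other SBP-box genes had 1 called (SPL16) under those same 3 settings. The AP2-like and floral transition lists each had 1 (AP2 and LFY) without genes below the median and with the trended and robust prior. The cause of these changes was not tested. The replicate block left every difference as it was, since the groups are balanced. Arrays give no read depth; the MIR156, MIR157 and MIR172 loci were too dim for their differences to be measured well.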
